A study of Mus musculus with 8 samples.

Results

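43 genes known from tumor macrophages were followed through bulk RNA-Seq libraries of T cells sorted from tumors, to describe their levels in each library and to compare CCR8+ with CCR8- cells. They were chosen by symbol from a list of 43 macrophage genes, with the condition of a mean of at least 10 normalized counts over the 8 libraries. All 43 were in the deposited table of 11233 genes and met the condition, as did 11032 of all genes.

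The cells came from mice of the genotype Foxp3-EGFP_DTR, in which Foxp3+ regulatory T (Treg) cells carry EGFP and the receptor for diphtheria toxin (DTx), so that the toxin kills them. The mice bore subcutaneous B16-F10 tumors, grown from a transplanted melanoma line of the mouse, and kept their own immune cells. EGFP-negative conventional CD4+ T (Tconv) cells were sorted into CCR8+ cells (CCR8pos_DTX, n = 4 libraries) and CCR8- cells (CCR8neg_DTX, n = 4). All mice of both groups received DTx, so that neither group shows cells from tumors with Treg cells. The age of the mice is not given in the labels. The methods give an age range and both sexes for the mice of the study as a whole, not for each library. The study calls the libraries of a group biological replicates collected on 1 day. Whether a library came from 1 mouse or from pooled mice, and whether libraries of the same number came from the same mouse, is not stated in the labels or methods, and the tests measure the spread between these libraries.

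Macrophages engulf cells and debris, digest them in lysosomes and sense immune complexes through Fc receptors. They are the main source of C1q, the first component of the classical complement pathway, and in tumors they often carry lipid-handling proteins such as apolipoprotein E. Monocytes that have recently entered a tissue tend instead to express inflammatory genes such as Il1b. The 43 genes were therefore described in 7 groups: macrophage identity (9 genes), complement (3), Fc receptor (5), lipid and scavenger (5), lysosome (10), inflammatory (5) and secreted factors (6). Lysosomal genes are used by most cells, including T cells, and are not particular to macrophages.

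The libraries held 12067780 to 17802628 reads over the genes of the table. Ccr8 ranged from 1293 to 6214 normalized counts in the CCR8- and from 6970 to 42508 in the CCR8+ libraries, without overlap. The 12 T cell marker genes summed to 108743 to 147053 normalized counts in the CCR8- and 111763 to 151995 in the CCR8+ libraries, so that all 8 libraries were T cell libraries by these genes. The CCR8- library 1 stood apart, with the fewest genes detected, 8569 against 9544 to 10882 in the others, and with 242 genes at 0 whose level was 100 normalized counts or more in each other library. In the CCR8+ libraries 1 and 3 there were 44 and 36 such genes. Libraries were amplified from little RNA, and a value of 1 read was worth 0.735 to 1.14 normalized counts.

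The 43 genes were a small and uneven share of the RNA. They made up 0.181%, 0.358%, 0.270% and 1.58% of all normalized counts in CCR8- libraries 1 to 4 and 0.817%, 0.725%, 0.338% and 0.740% in CCR8+ libraries 1 to 4. The shares overlapped between the populations, because the CCR8- library 4 had the highest share of all while the other CCR8- libraries had 3 of the 4 lowest. Lysosomal genes made up 41.7% (CCR8- library 4) to 86.7% (CCR8- library 1) of this sum, and the 33 other genes 0.0241%, 0.101%, 0.0389% and 0.924% of all normalized counts in CCR8- libraries 1 to 4 and 0.458%, 0.356%, 0.0805% and 0.296% in CCR8+ libraries 1 to 4. In the CCR8- library 4, 30 of the 43 genes were at their highest level, against 9.24% of all tested genes. In the CCR8- library 1, 29 were at their lowest, and 22 of the 43 were at 3 reads or fewer. In the CCR8+ library 3 and the CCR8- library 3, 9 and 8 genes were at 3 reads or fewer, values that were not told apart from 0. The standard deviation of a gene's log2 level over the 8 libraries had a median of 3.22 for the 43 genes and 0.848 for all tested genes. In bulk RNA the cells that held these transcripts cannot be identified. A library with fewer such cells and one with less of this RNA per cell cannot be told apart either.

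**Figure D1:**
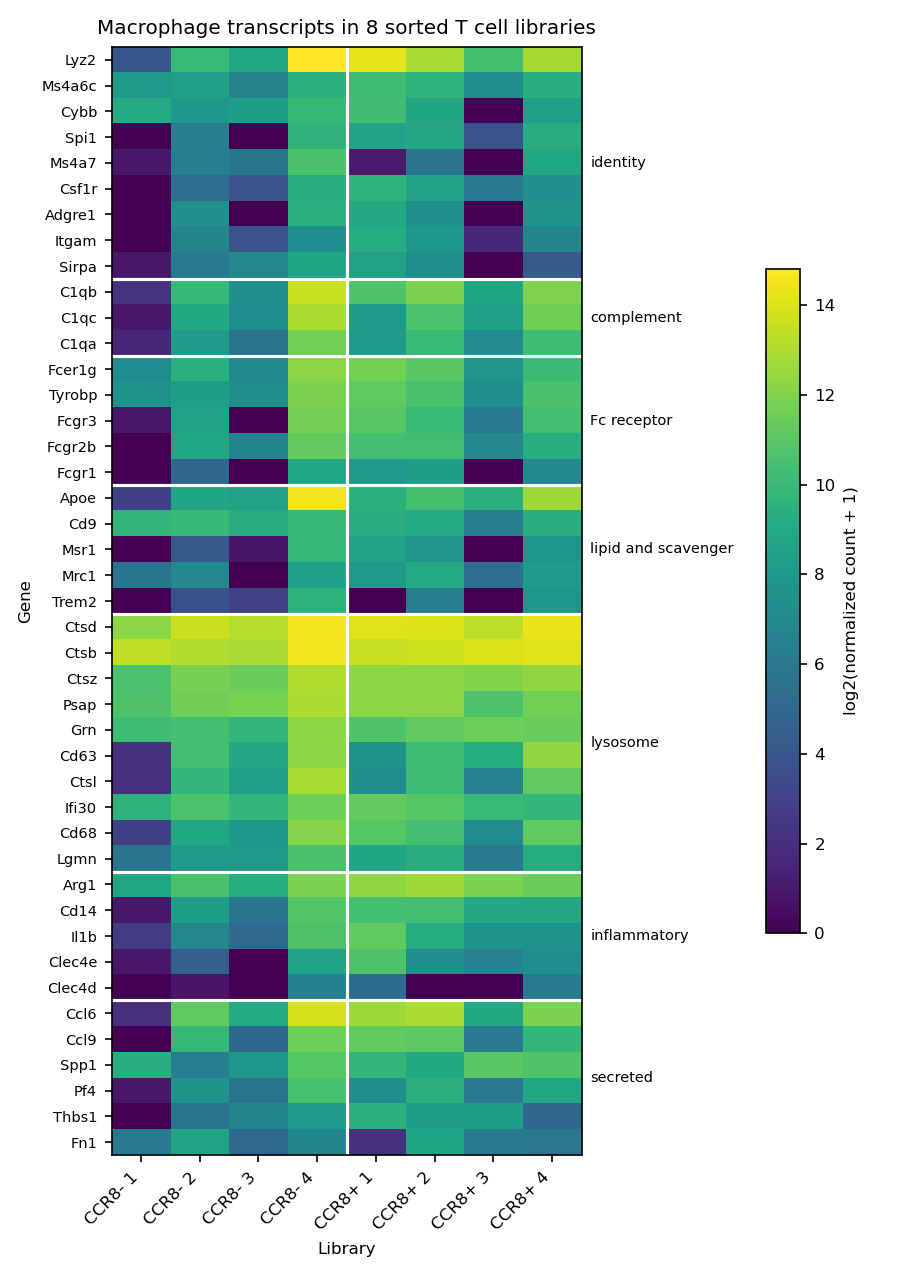
Heat map of the 43 genes (rows, by group and in falling order of mean level within a group) in the 8 libraries (columns), colored by log2(normalized count + 1). The CCR8- library 4 is the brightest column, with 30 of 43 genes at their highest, and in the CCR8- library 1 22 genes are at 3 reads or fewer and 13 at 100 normalized counts or more, among them Cd9, Spp1, Cybb, Arg1 and Ms4a6c outside the lysosome group.

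Between the populations, 0 of the 43 genes passed the limma test at an adjusted p under 0.05. Among all 11032 tested genes 0 passed (0%), and the lowest adjusted p was 0.788 over all genes and 0.838 over the 43. At an unadjusted p under 0.05, 2 of the 43 were higher in CCR8+ cells (Arg1 and Clec4e), against 2.8% of all tested genes, and 0 were lower, against 2.29%. For 0 of the 43 genes did the 4 CCR8+ values lie entirely above or below the 4 CCR8- values, as they did for 2.37% (above) and 2.03% (below) of all tested genes. DESeq2's Wald test, run on whole reads recovered from the table, called 0 of the 43 genes against 0.236% of all tested genes, and gave no adjusted p for 27 of the 43. edgeR's quasi-likelihood test also called 0 of the 43 and 0% of all tested genes, with 1 of the 43 at an unadjusted p under 0.05, against 4.41% of all tested genes.

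On the log2 scale most of the genes nevertheless had a higher average in CCR8+ cells. The log2 fold change was above 0 for 36 of 43 genes (83.7%), against 52.4% of all tested genes, with a median of 1.78 against 0.04. The median standard error of a fold change was 1.74 for the 43 genes, nearly as large as their median change, and 0.63 for all genes. The arithmetic means gave a different picture, because the CCR8- library 4 dominates them: 27 of 43 genes had the higher mean in CCR8+ cells and 16 in CCR8- cells, and for 9 genes the sign differed from that of the log2 fold change. Count models follow the arithmetic means, and 27 (DESeq2) and 26 (edgeR) of the 43 genes were above 0 with them, with a median log2 fold change of 0.20 for either.

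The size of the difference rested on individual CCR8- libraries. Without the CCR8- library 4 the median log2 fold change was 2.88, 39 of 43 genes were above 0, and 23 of 43 had an unadjusted p under 0.05 in favor of CCR8+ cells, against 4.04% of all tested genes, although 0 passed the adjusted test (lowest adjusted p = 0.471). In that setting 10 of the 43 genes no longer overlapped, against 4.72% of all tested genes: Lyz2, Csf1r, Apoe, Ctsb, Ctsz, Grn, Il1b, Cd14, Clec4e and Arg1, all higher in CCR8+ cells. The CCR8- library 4 held the highest value of 30 of the 43 genes, against 9.24% of all tested genes. Leaving it out was therefore bound to raise their fold changes, and the shares over all tested genes are not an equal background for these counts. Without the CCR8- library 1, in which most of the genes were near 0, the median fell to 0.38 and 30 of 43 genes were above 0.

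**Figure D2:**
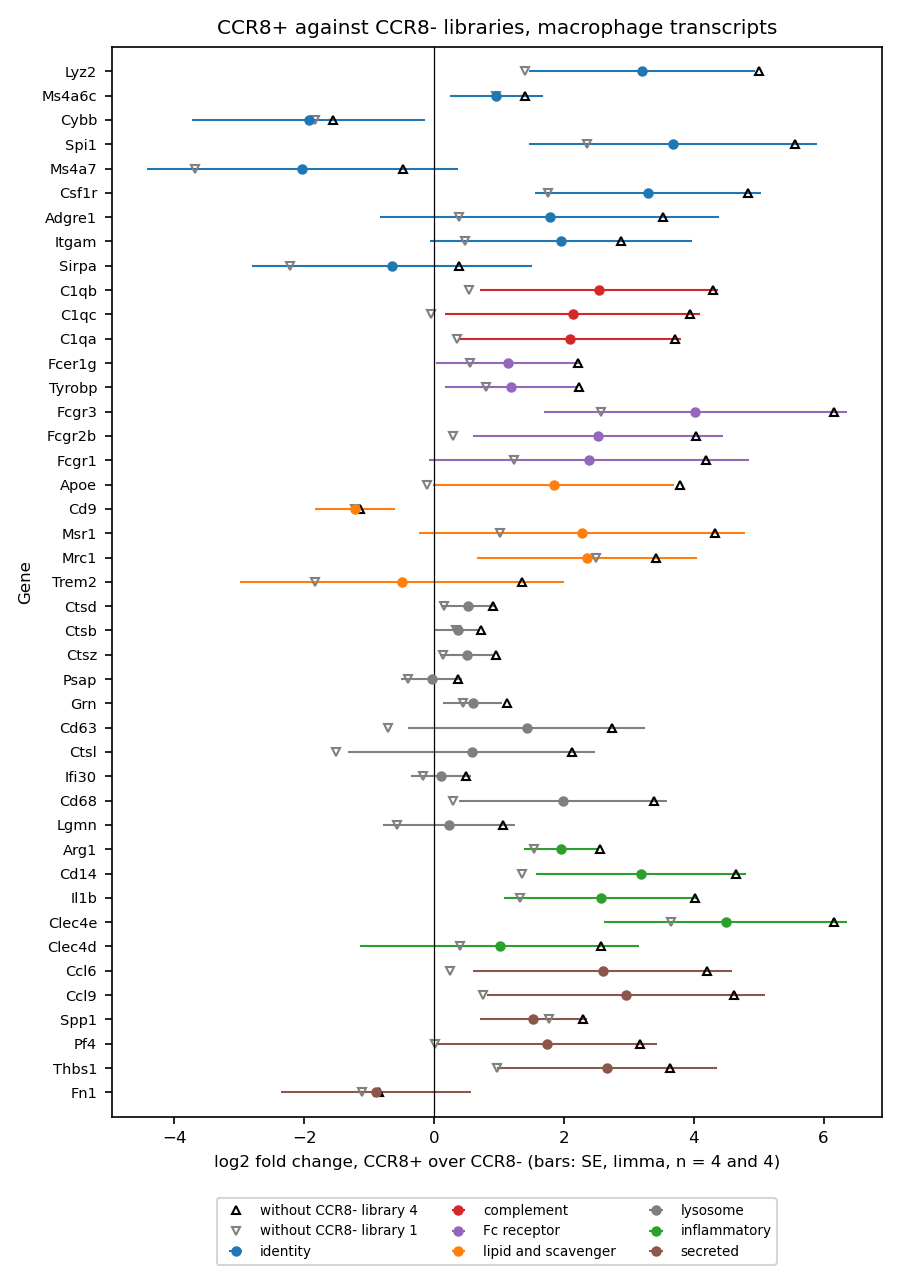
Log2 fold change of each of the 43 genes, CCR8+ over CCR8- libraries (x axis, limma on log2(normalized count + 1), bars SE, n = 4 and 4), colored by group. Open triangles pointing up leave out the CCR8- library 4 and move to a median of 2.88, and those pointing down leave out the CCR8- library 1 and move to a median of 0.38.

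The complement genes C1qa, C1qb and C1qc encode the 3 chains of C1q and lie next to each other on mouse chromosome 4, at 136895917 to 136898803, 136880129 to 136886187 and 136889804 to 136893065 (GRCm38, minus strand). C1qa was at 1.97, 279, 55.3 and 3230.0 normalized counts in CCR8- libraries 1 to 4 and 291, 1017, 138 and 1196 in CCR8+ libraries 1 to 4. C1qb was at 3.94, 961, 166 and 12163 in the CCR8- and 1713, 3827, 432 and 3883 in the CCR8+ libraries. C1qc was at 0.985, 516, 144 and 8103 in the CCR8- and 268, 1556, 346 and 3079 in the CCR8+ libraries. All 3 chains were at 4 reads or fewer in the CCR8- library 1 and at their highest in the CCR8- library 4, and the populations overlapped for each. The means were 3323 ± 5908 (SD, n = 4) normalized counts in CCR8- and 2464 ± 1689.6 in CCR8+ cells for C1qb, and 892 ± 1564 and 660.4 ± 524 for C1qa. The log2 fold change was 2.09 ± 1.71 (SE) for C1qa, 2.54 ± 1.83 for C1qb and 2.13 ± 1.96 for C1qc, with adjusted p = 0.838, 0.838 and 0.847 (limma). The sign depended on the scale for all 3: the arithmetic means were lower in CCR8+ cells, with ratios of 0.741, 0.741 and 0.599 for C1qa, C1qb and C1qc.

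The chains stayed close to one another while their level varied. In the 7 libraries other than the CCR8- library 1, C1qb was 3.0 to 5.89 times as high as C1qa, and C1qc 0.922 to 2.60 times. Both extremes, the highest C1qb and the lowest C1qc relative to C1qa, were in the CCR8+ library 1. The sequences before the start sites of C1qb and C1qc are shown because these genes moved together and because a member of the list, Spi1, encodes PU.1, a transcription factor of macrophages that binds purine-rich sites. They cover 250 bases before the start (RefSeq, GRCm38.p6, minus strand, chr4:136886201-136886450 and chr4:136892915-136893164), and capitals mark the letters GAGGAA, part of the PU.1 motif, or their reverse complement TTCCTC. Each holds 1 match, 30 bases before the start for C1qb and 193 for C1qc. The starts are those of RefSeq, and part of the C1qc stretch lies within the gene as placed above.
C1qb: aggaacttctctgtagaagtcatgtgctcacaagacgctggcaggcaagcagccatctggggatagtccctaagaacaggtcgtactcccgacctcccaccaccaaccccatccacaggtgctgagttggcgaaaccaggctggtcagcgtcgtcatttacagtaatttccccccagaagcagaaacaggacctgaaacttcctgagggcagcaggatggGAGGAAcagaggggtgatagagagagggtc
C1qc: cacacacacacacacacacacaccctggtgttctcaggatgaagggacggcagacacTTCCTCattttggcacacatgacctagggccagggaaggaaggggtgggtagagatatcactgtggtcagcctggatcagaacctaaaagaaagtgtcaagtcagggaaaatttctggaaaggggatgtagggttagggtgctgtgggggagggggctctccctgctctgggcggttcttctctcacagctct
The set of RefSeq start sites used here gave such stretches for 31 of the 43 genes. C1qa was not among them, which does not mean that RefSeq lacks a start for it. At least 1 match was present in 16 of 31 (51.6%), against 6986 of 27025 genes with such a stretch (25.9%). A match is a string of letters and does not show that PU.1 binds there.

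Fc receptors bind the constant part of antibodies. Fcgr1, Fcgr2b and Fcgr3 encode receptors for IgG, of which Fcgr2b is the inhibitory one, and Fcer1g and Tyrobp encode the adaptor proteins FcRγ and DAP12, which carry their activating signal or that of other receptors. Fcgr3 was at 0.985, 403, 0 and 3404 normalized counts in CCR8- libraries 1 to 4 and 2024, 1063, 67.3 and 1299 in CCR8+ libraries 1 to 4. Fcgr2b was at 0, 475, 104 and 2402 in the CCR8- and 1316, 1268, 124 and 623 in the CCR8+ libraries. Fcgr1 was at 0, 30.1, 0 and 469 in the CCR8- and 259, 319, 0 and 131 in the CCR8+ libraries. Like C1q, the 3 receptors were at 0 or 1 read in the CCR8- library 1 and at their highest in the CCR8- library 4, but unlike C1q the CCR8+ library 1 was among the 3 highest for each of them. Fcgr1 was at 0 in the CCR8+ library 3 as well. Fcgr2b and Fcgr3 are paralogs, and since only uniquely mapped reads were used, reads of sequence they share could have been lost from both.

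The adaptors were more evenly expressed. Fcer1g was at 149, 687, 132 and 4792 normalized counts in CCR8- libraries 1 to 4 and 3218, 2073, 211 and 1100.3 in CCR8+ libraries 1 to 4. Tyrobp was at 193, 298, 159 and 3739.9 in the CCR8- and 2379.9, 1493, 176 and 1497 in the CCR8+ libraries. Neither adaptor was near 0 in any library, and both had their 3 lowest values in the CCR8- libraries 1 and 3 and the CCR8+ library 3. Log2 fold changes of the 5 genes ran from 1.14 ± 1.11 for Fcer1g to 4.02 ± 2.34 for Fcgr3, all above 0, with a median of 2.39 and adjusted p from 0.838 to 0.852. Their arithmetic means were 1.12 to 1.42 times as high in CCR8+ cells, so that the sign was the same on both scales but the size was not. The stretch before Fcgr1 (chr3:96293970-96294219, minus strand), shown as an example with a match, holds 1 match, 55 bases before the start. Of the 4 Fc receptor genes with a stretch, 2 held a match, Fcgr1 and Fcgr3, and Fcgr2b and Fcer1g held none. Among the IgG receptors, Fcgr1 followed the mean complement level least over the 8 libraries. Its Pearson's r was 0.80, against 0.85 for Fcgr3 and 0.95 for Fcgr2b. This order rested on the CCR8- library 1, without which r was 0.83, 0.82 and 0.84 for Fcgr1, Fcgr3 and Fcgr2b.
Fcgr1: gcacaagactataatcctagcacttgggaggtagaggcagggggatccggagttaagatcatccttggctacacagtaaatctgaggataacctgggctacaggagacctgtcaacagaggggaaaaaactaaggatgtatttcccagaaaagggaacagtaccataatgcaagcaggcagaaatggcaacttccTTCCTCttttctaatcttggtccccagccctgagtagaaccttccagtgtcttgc

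Among the identity genes, Lyz2, which encodes lysozyme, had the highest level per kilobase of exon of all 43 genes, with a mean of 6329 normalized counts per kb over the libraries. It was at 14.8, 1044, 449 and 28853 normalized counts in CCR8- libraries 1 to 4 and 19993, 7616, 1396 and 7266 in CCR8+ libraries 1 to 4. Lyz2 was thus above 1000 in the CCR8- libraries 2 and 4 and in every CCR8+ library, and its log2 fold change was 3.20 ± 1.74 (SE, adjusted p = 0.838, limma). Without the CCR8- library 4 its values no longer overlapped between the populations and the fold change was 5.01.

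Ms4a6c, of the MS4A family of membrane proteins, was at 279.7, 339, 96.5 and 697 in the CCR8- and 1191, 756, 155 and 661 in the CCR8+ libraries. Cybb, the catalytic subunit of the phagocyte NADPH oxidase, was at 544, 234, 304 and 978 in the CCR8- and 1222, 436, 0 and 334 in the CCR8+ libraries. These values differ from those of Lyz2 in the CCR8- library 1, where they had 284 and 552 reads. Of the exonic bases of Ms4a6c, 1088 of 2050 overlap an antisense gene, and the files do not say whether reads were counted by strand.

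The 6 other identity genes were Csf1r (the receptor for the macrophage growth factor CSF-1), Spi1, Adgre1 (F4/80), Itgam (CD11b), Sirpa (a receptor for CD47) and Ms4a7, and they ranged from 0 or near 0 to 1521 normalized counts. Csf1r was at 0, 38.2, 14 and 611 in the CCR8- and 754, 403, 62.7 and 171 in the CCR8+ libraries. Spi1 was at 0, 80.1, 0 and 798 in the CCR8- and 399, 497, 13.7 and 599 in the CCR8+ libraries. Csf1r and Spi1 were low or at 0 in the CCR8- libraries 1 and 3 and had the largest fold changes of the group, 3.30 ± 1.75 and 3.68 ± 2.22 (SE, adjusted p = 0.838 for both, limma). Adgre1 ranged from 0 to 705, Itgam from 0 to 587, Sirpa from 0 to 435 and Ms4a7 from 0 to 1521 normalized counts over the 8 libraries. In the group, 6 of 9 log2 fold changes were above 0 (median 1.78), and Cybb, Sirpa and Ms4a7 were below at -1.93 ± 1.80, -0.64 ± 2.16 and -2.03 ± 2.40. Adgre1 changed sign between scales, with a ratio of arithmetic means of 0.982. Most of the exonic bases of Itgam, 3450 of 5024, are shared with another annotated gene on the same strand.

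Among the lipid and scavenger genes, Apoe, which encodes apolipoprotein E, was at 5.91, 432, 367 and 22892 normalized counts in CCR8- libraries 1 to 4 and 682, 1396, 668 and 6478 in CCR8+ libraries 1 to 4. Its CCR8- values ran from near 0 to the highest of all, and the log2 fold change of 1.84 ± 1.86 stood against a ratio of arithmetic means of 0.389. Without the CCR8- library 1 the log2 fold change of Apoe was -0.11. Msr1, a scavenger receptor for modified lipoproteins, was at 0, 17.6, 0.877 and 977 in the CCR8- and 397, 208, 0 and 226 in the CCR8+ libraries. Msr1 was at 0 or 1 read in 3 libraries, the CCR8- libraries 1 and 3 and the CCR8+ library 3.

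Cd9, a tetraspanin that many cell types express, followed another pattern. It was at 813, 968, 591 and 927 in the CCR8- and 594, 532, 76.4 and 610.2 in the CCR8+ libraries. Its level lay between 532 and 968 in 7 libraries and was lower in the CCR8+ library 3, with a log2 fold change of -1.21 ± 0.61 (SE, adjusted p = 0.838, limma) and, without that library, of -0.49. With the same total in every library, Cd9 was the 1 gene of the 43 whose values did not overlap, lower in CCR8+ cells, against 2.31% of all tested genes. Mrc1 (the mannose receptor, CD206) ranged from 0 to 539 and Trem2, a lipid-sensing receptor that signals through DAP12, from 0 to 762 normalized counts. Trem2 was listed at 0 in the CCR8- library 1 and in the CCR8+ libraries 1 and 3. The group had 3 of 5 log2 fold changes above 0 with a median of 1.84, but 1 of 5 ratios of arithmetic means above 1, and its median turned to -0.86 with edgeR and -0.87 with DESeq2.

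Lysosomal genes had the highest summed level of the 7 groups, 21054 to 91756 normalized counts per library, and were the most even group, with a median standard deviation of 0.805 over the libraries on the log2 scale, against 0.848 for all tested genes. Ctsd, Ctsb and Ctsz encode cathepsins, the proteases of the lysosome. Ctsd was at 5134, 12867, 9363 and 24409.8 normalized counts in CCR8- libraries 1 to 4 and 18168, 16705, 10375 and 20469 in CCR8+ libraries 1 to 4. Ctsb was at 10705, 8329, 7695 and 24126 in the CCR8- and 11676, 13254, 16157 and 18262 in the CCR8+ libraries. Ctsz was at 1569, 3561, 2732 and 8633 in the CCR8- and 5124, 4850.0, 4061 and 5311 in the CCR8+ libraries. All 3 had over 1000 normalized counts in every library, including the CCR8- library 1. Their log2 fold changes were 0.52 ± 0.42, 0.37 ± 0.35 and 0.51 ± 0.42, with adjusted p of 0.838, 0.847 and 0.838 (limma). Of the exonic bases of Ctsd, 808 of 2351 are shared with another gene on the same strand.

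Psap (the precursor of the saposins), Grn (progranulin) and Ifi30 (a thiol reductase) were as steady, ranging from 1631 to 8049.9, from 848 to 4863 and from 764 to 3038 normalized counts. Cd63, Cd68, Ctsl and Lgmn were not. Cd63 and Cd68, membrane proteins of late endosomes and lysosomes, ranged from 2.96 to 5187 and from 5.91 to 4453, and the proteases Ctsl and Lgmn from 2.96 to 7537 and from 50.2 to 1516. Of these 4, Cd63, Cd68 and Ctsl were at 6 reads or fewer in the CCR8- library 1, as the complement genes were. The group had 9 of 10 log2 fold changes above 0, with a median of 0.51 that became -0.02 without the CCR8- library 1. The cathepsin D stretch (chr7:142387828-142388077, minus strand) is shown because the gene had the highest level per kb of the group and holds the E-box TCACGTG, or its reverse complement CACGTGA, in capitals, letters bound by TFEB-type factors that act on lysosomal genes. Of 3 matches, 2 overlap within a palindrome. Part of the stretch, with these 2 matches, lies within the gene as the GENCODE annotation places it.
Ctsd: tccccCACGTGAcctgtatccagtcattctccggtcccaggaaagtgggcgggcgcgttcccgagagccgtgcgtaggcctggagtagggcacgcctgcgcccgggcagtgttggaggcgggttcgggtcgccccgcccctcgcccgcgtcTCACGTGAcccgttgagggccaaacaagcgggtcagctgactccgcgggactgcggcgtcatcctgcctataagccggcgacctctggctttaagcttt
The E-box was present in 3 of the 31 genes (Ctsd, Ifi30 and Lgmn), all lysosomal, against 3.58% of 27025 genes, and GAGGAA or TTCCTC was not in the stretch of Ctsd.

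The group named inflammatory here, of Il1b, Cd14, Clec4d, Clec4e and Arg1, held both genes with an unadjusted p under 0.05. Arg1 differed from the rest of the group in the CCR8- library 1, at 459 against 0 to 4.93 normalized counts, so its result does not stand for the group. Arg1, the arginase of myeloid cells that consumes arginine, was at 459, 1517, 586 and 3835 normalized counts in CCR8- libraries 1 to 4 and 5295, 6564, 3826 and 2708 in CCR8+ libraries 1 to 4. The CCR8+ values of Arg1 lay above those of CCR8- libraries 1 to 3, and the CCR8- library 4 lay among them. Its means were 4598 ± 1685 (SD, n = 4) in CCR8+ and 1599 ± 1563 in CCR8- cells. The log2 fold change was 1.96 ± 0.58 (SE), with an unadjusted p of 0.00599 and an adjusted p of 0.838 (limma), and p = 0.0857 by a two-sided exact permutation test, for which the smallest possible p was 0.0286. Clec4e (Mincle), a receptor for damaged cells and mycobacterial lipids, was at 0.985, 22.1, 0 and 370.2 in the CCR8- and 1707, 162, 93.5 and 165 in the CCR8+ libraries. Its log2 fold change was 4.49 ± 1.87 (unadjusted p = 0.0347, adjusted p = 0.838, limma; exact permutation p = 0.114), and the values again overlapped through the CCR8- library 4. Leaving out each library in turn, the fold change of Arg1 stayed between 1.53 and 2.55 and that of Clec4e between 3.32 and 6.17. A DESeq2 fit blocked on replicate number called both higher in CCR8+ cells (adjusted p = 0.0305 for Arg1 and 0.0277 for Clec4e), against 0.698% of all tested genes called higher there, and limma with that block called neither (adjusted p = 0.758 for both).

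Il1b, the cytokine IL-1β, was at 4.93, 114, 35.1 and 1642 normalized counts in CCR8- libraries 1 to 4 and 2334, 577, 189 and 192 in CCR8+ libraries 1 to 4. Cd14, a co-receptor for bacterial lipopolysaccharide, was at 0.985, 304, 54.4 and 1836 in the CCR8- and 1349, 1279, 493 and 496 in the CCR8+ libraries. The CCR8+ library 1 had the highest Il1b and Clec4e, while Cd14 was highest in the CCR8- library 4. Clec4d, a relative of Clec4e that is encoded beside it on chromosome 6, had the lowest mean of the 43 genes and ranged from 0 to 89.7, with 0 or 1 read in 5 libraries. All 5 genes had a log2 fold change above 0 (median 2.57) and a ratio of arithmetic means above 1, from 1.16 for Clec4d to 5.41 for Clec4e. The stretch before Clec4e (chr6:123289872-123290121, minus strand), shown because Clec4e had the largest fold change of the 43 genes, holds 2 PU.1 matches, 123 and 56 bases before the start.
Clec4e: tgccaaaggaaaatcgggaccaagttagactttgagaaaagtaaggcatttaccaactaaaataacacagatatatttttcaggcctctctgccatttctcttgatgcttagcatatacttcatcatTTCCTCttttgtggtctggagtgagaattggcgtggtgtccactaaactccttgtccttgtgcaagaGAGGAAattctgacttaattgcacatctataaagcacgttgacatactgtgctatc

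Of the secreted factors, the chemokine Ccl6 was at 2.96, 2316, 559.6 and 14906 normalized counts in CCR8- libraries 1 to 4 and 6327, 8090.3, 515 and 3877 in CCR8+ libraries 1 to 4. Ccl9, a neighboring chemokine gene on chromosome 11, was at 0, 916, 31.6 and 3036 in the CCR8- and 2456, 2201, 68.4 and 889.6 in the CCR8+ libraries. Both were near 0 in the CCR8- library 1 and low in the CCR8+ library 3, and the CCR8- library 2 was higher than the CCR8+ library 3 for each. Spp1 (osteopontin) was at 646, 80.9, 229 and 1889.8 in the CCR8- and 897, 515, 2056 and 1676 in the CCR8+ libraries. Spp1 did not follow the chemokines: it had 656 reads in the CCR8- library 1 and its highest value in the CCR8+ library 3. Pf4 (platelet factor 4) ranged from 0.985 to 1443, Thbs1 (thrombospondin 1) from 0 to 714 and Fn1 (fibronectin) from 3.24 to 442 normalized counts. The group had 5 of 6 log2 fold changes above 0, the largest 2.96 ± 2.14 for Ccl9, with a median of 2.17, and Fn1 was below at -0.90 ± 1.46.

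The programs were then compared across libraries by the mean log2(normalized count + 1) of their genes. In CCR8- libraries 1 to 4 this level was 1.62, 9.02, 6.79 and 12.74 for complement, and it was 9.0, 10.83, 8.10 and 11.25 in CCR8+ libraries 1 to 4. For Fc receptor genes it was 3.16, 8.03, 4.22 and 11.19 in the CCR8- and 10.45, 10.05, 5.65 and 9.46 in the CCR8+ libraries. For inflammatory genes it was 2.68, 6.20, 4.03 and 9.69 against 9.99, 7.91, 7.0 and 8.29. For lipid and scavenger genes it was 3.64, 6.73, 4.30 and 10.47 against 7.06, 8.53, 4.21 and 9.14. Complement, Fc receptor and lipid levels were highest in the CCR8- library 4, whereas the inflammatory level was highest in the CCR8+ library 1.

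**Figure D3:**
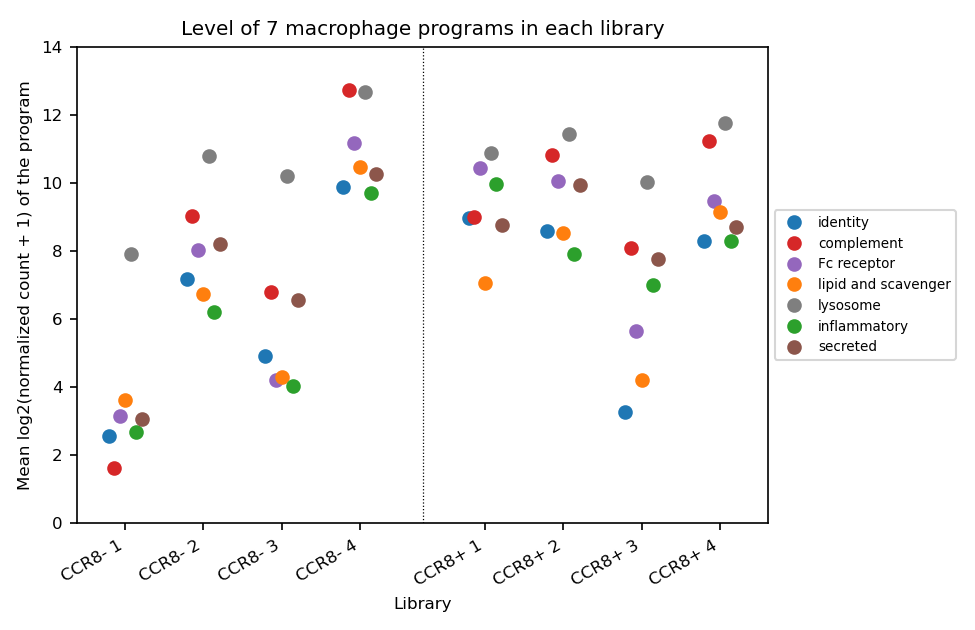
Mean log2(normalized count + 1) of the genes of each of 7 groups (colors) in each of the 8 libraries (x axis), 1 point per group and library. All groups are high in the CCR8- library 4 and low in the CCR8- library 1, and in the CCR8+ library 1 the inflammatory and Fc receptor levels (9.99 and 10.45) lie above complement (9.0) and lipid (7.06).

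The 4 programs rose and fell together over the 8 libraries. Pearson's r was 0.88 between complement and Fc receptor, 0.88 between complement and lipid, 0.86 between complement and inflammatory, 0.92 between Fc receptor and lipid, 0.94 between Fc receptor and inflammatory and 0.79 between lipid and inflammatory genes. Spearman's rho for the same pairs was 0.833, 0.952, 0.714, 0.881, 0.929 and 0.786. As deviations from the mean of each population, pooled over both, r was 0.83 to 0.94. The CCR8- libraries weigh most in this, with complement levels from 1.62 to 12.74 against 8.10 to 11.25 in the CCR8+ libraries. Among the CCR8+ libraries inflammatory and complement levels did not keep the same order. The inflammatory level was highest in library 1 (9.99), where complement was at 9.0, against 10.83 and 11.25 in libraries 2 and 4. These are descriptions over 8 libraries in which all programs share depth and the number of genes detected. Leaving out the 2 libraries farthest from the median of the first-named program, r became 0.83, 0.95, 0.64, 0.88, 0.78 and 0.62. These values were lower for the pairs with inflammatory genes than for the others. The shared rise was not particular to the 4 programs. Over the 15 pairs that include identity, lysosome or secreted genes, r over the 8 libraries was 0.82 to 0.99. Its median was 0.89, against 0.88 for the 6 pairs of the 4 programs, and it was highest for complement and lysosome.

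Single genes showed the same in part. With the mean complement level, r over the 8 libraries was 0.99 for Pf4, 0.97 for Apoe, 0.96 for Ctsd and 0.96 for Ccl6, 0.95 for Fcgr2b and 0.84 for Il1b. It was 0.26 for Spp1, 0.20 for Fn1, 0.10 for Cybb and 0.04 for Cd9, the 4 genes least like complement over all 8 libraries. This order rested on the CCR8- library 1: without it r was 0.46, 0.32, 0.42 and 0.40 for these 4 genes, and the lowest was that of Thbs1, which went from 0.72 to -0.03. Among all other tested genes, the 8 most like the complement profile were Cxcl16, Ccl8, Il1rn, App, Josd2, Rps13, Eef1d and Pcnxl4 (r of 0.96 to 0.98). The chemokine Ccl8 was at 0, 2417, 278 and 28947 in the CCR8- and 251, 5042, 672 and 6868 in the CCR8+ libraries. Cxcl16 ranged from 0 to 807 and the ribosomal protein gene Rps13 from 4183 to 8203 normalized counts, so that a high r over 8 libraries was also reached by genes of small spread.

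The CCR8- library 4 and the CCR8+ library 1 had the highest summed level of the 43 genes, 220131 and 106519 normalized counts, and they were compared with each other as a description, chosen after their values were seen. Complement was lower in the CCR8+ library 1 for 3 of 3 genes, with a median log2 difference of -3.47, and Apoe was at 682 against 22892. Inflammatory genes were higher there for 3 of 5, with a median of 0.47, among them Il1b at 2334 against 1642 and Clec4e at 1707 against 370. Itgam and Csf1r were also higher (587 against 145 and 754 against 611), and Lyz2 was at 19993 against 28853. Ms4a7 was at 1.08 against 1521 and Trem2 at 0 against 762. The ratio of Il1b to C1qa was 8.03 in the CCR8+ library 1 and 0.161 to 1.37 in the 6 other libraries with more than 3 reads of both, and that of Lyz2 to C1qa 68.8 against 3.74 to 10.1. Each population thus held a library rich in macrophage transcripts, and the 2 differed in which genes were high. The CCR8+ library 1 was not alone in this, as the sums were 94918 and 102504 in CCR8+ libraries 2 and 4. Among the CCR8- libraries the next highest sum was 46895, in library 2.

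**Figure D4:**
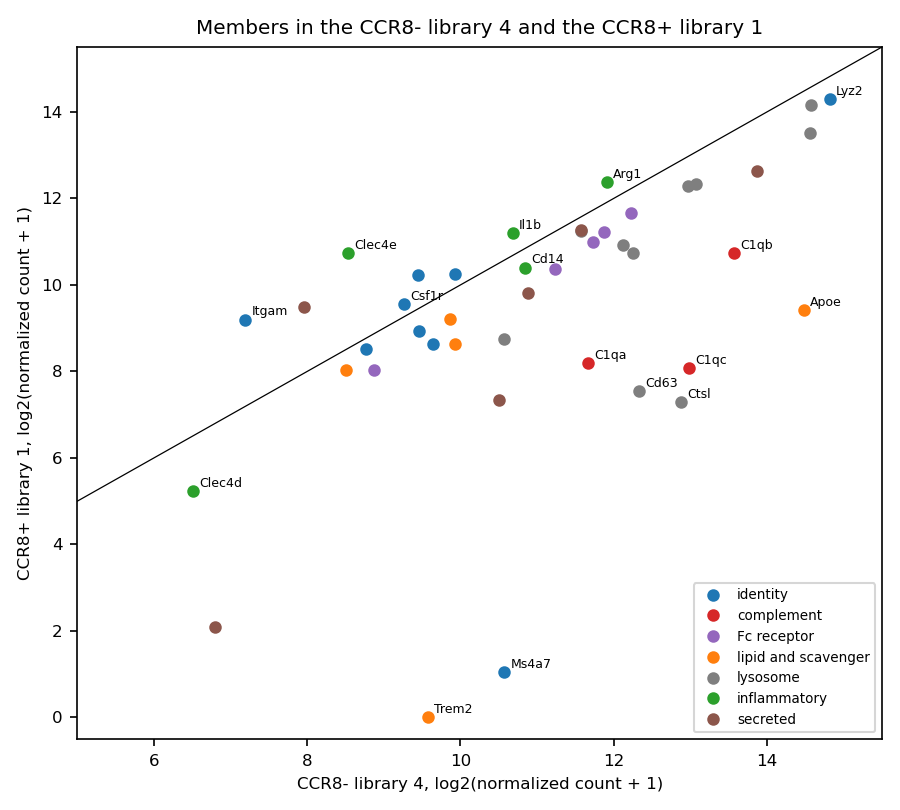
Level of each of the 43 genes in the CCR8- library 4 (x axis) and in the CCR8+ library 1 (y axis), both as log2(normalized count + 1), colored by group, with the line of equal level. Clec4e, Il1b, Arg1, Itgam and Csf1r lie above the line, and C1qa, C1qb, C1qc, Apoe, Ms4a7 and Trem2 lie below it.

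Other genes of the same programs, taken from wider lists of macrophage identity, complement and Fc, lipid, lysosome and inflammatory genes, gave a like picture. Of 77 tested, 0 passed the adjusted test, 61 (79.2%) had a log2 fold change above 0, against 52.4% of all tested genes, and the median was 0.83. At an unadjusted p under 0.05, 5 were higher in CCR8+ cells (Csf2rb, Plek, Plin2, Ctsh and Cxcl2), against 2.8% of all tested genes, and 0 lower, against 2.29%. Plin2, which coats lipid droplets, was the only 1 of the 77 whose values did not overlap, against 2.37% of all tested genes that lay entirely higher in CCR8+ cells. Plin2 was at 4132, 2342, 2270.1 and 5446 in the CCR8- and 7005, 6454, 13807 and 6089.9 in the CCR8+ libraries (log2 fold change 1.25 ± 0.35, adjusted p = 0.83, limma). Ctsh, a cathepsin, was at 51.2, 295, 363 and 1641 in the CCR8- and 1809, 1246, 5067 and 1595 in the CCR8+ libraries (log2 fold change 2.74 ± 0.85). Ctsh and Plin2 were highest in the CCR8+ library 3, where 9 of the 43 genes were at 3 reads or fewer.

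Markers of other cells varied as well. Over CCR8- libraries 1 to 4 the 7 melanoma cell markers summed to 105, 4413, 5574 and 17389 normalized counts, and over CCR8+ libraries 1 to 4 to 308, 5177, 232 and 21841. They were highest in the fourth library of each population, whereas the 43 genes were high in the CCR8+ library 1 with few melanoma transcripts. The 5 fibroblast markers tested summed to 23.6 to 2945 in the CCR8- and 73.0 to 1865 in the CCR8+ libraries, and the CD8 T cell genes Cd8a and Cd8b1 to 980 to 3805 and 478 to 1227, highest in the CCR8- library 4. The 2 neutrophil markers analyzed summed to at most 267, and 6 dendritic cell markers to 915 to 1901. All 7 melanoma markers had a log2 fold change below 0 (median -1.06), whereas the arithmetic mean was higher in CCR8+ cells for 3 of 7 and their summed level had a mean of 6870.4 in the CCR8- and 6889 in the CCR8+ libraries, so that the direction depended on the scale. The part that carry-over from other cells of the tumor had in the levels of the 43 genes was not tested.

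**Figure D5:**
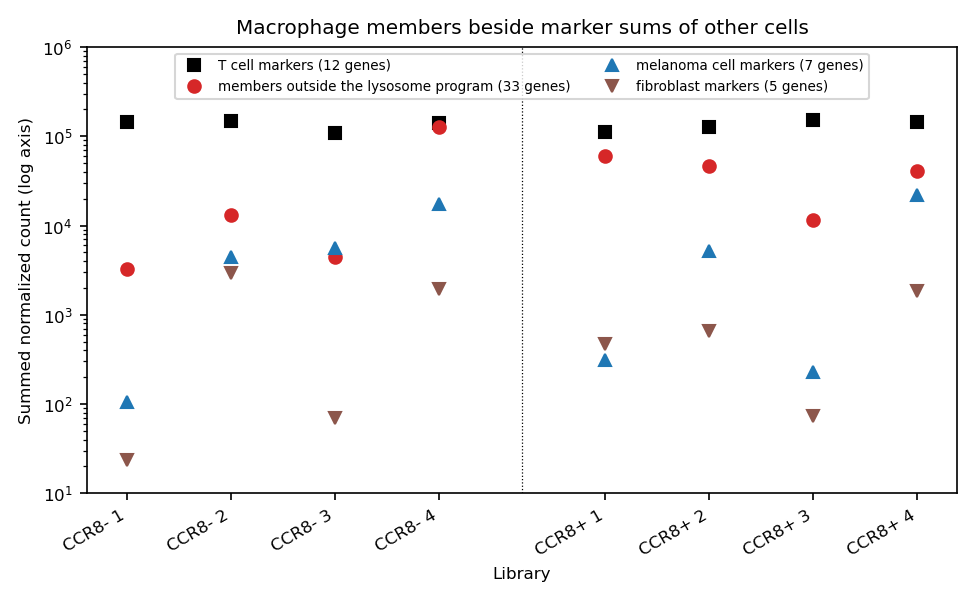
Summed normalized counts (log axis) of the 12 T cell markers, the 33 genes outside the lysosome group, 7 melanoma cell markers and 5 fibroblast markers in each library. The T cell sum stays between 108743 and 151995, while the sum of the 33 genes runs from 3241 to 128375, both in CCR8- libraries.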

How the data were processed

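Bulk RNA-Seq of 8 libraries of sorted tumor T cells was analyzed, with groups and replicate numbers from the sample titles. Per the methods, the authors ran FastQC and Cutadapt, aligned with hisat2 against NCBIM37 and used reads that mapped uniquely. Their processing notes also name HTSeq and DESeq2, and tool versions and the strand setting are not given in the sources used here. The authors deposited a signal for each gene, that is read counts scaled by 1 factor per library, in a table they named FPM. All values (100%, within 0.01) were whole multiples of what 1 read was worth, so whole reads could be recovered. Unused columns of per-sample values numbered 0.

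Populations were compared with limma 3.58.1 (R 4.3.3, intensity trend) on log2(normalized count + 1). The fit covered 11032 genes whose mean was 10 or more, p-values were adjusted by the Benjamini-Hochberg method, and a call needed an adjusted p under 0.05. Fold changes on this scale understate those of low genes. edgeR 4.0.16 and DESeq2 1.42.0 were run on the recovered reads. For single genes, exact permutation tests (two-sided) used all 70 assignments of the labels, and group levels and correlations are descriptions. The tests were also run on simulated data, but the settings and outcome of that check are not given here. It therefore does not show how the tests behave at the wide spread of these libraries. Alternatives were a pseudocount of 0.1 or 10, a minimum mean of 100 or none, TMM factors, equal totals, limma without the trend or with robust variances, the replicate number as a block, and leaving out each library.

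Gene positions and shared exonic bases are those of GENCODE M21 (GRCm38), not the build of the alignment, and sequences are RefSeq's. Values in every library are given for complement and Fc receptor genes, the 3 highest genes of each other group, and genes with an unadjusted p under 0.05 or values that do not overlap, and the other genes by their range. Csf1r and Spi1 were added after their values were seen. The genes and lists were chosen with earlier results of these data known. Values of 3 reads or fewer were not told apart from 0, and this limit covers counting error only.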

Additional observations from a re-analysis of the deposited data

Results flagged for a closer look

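Within each population, each of the 43 genes was checked for a library far from the other 3 on the log2 scale (Dixon's criterion, 95%), which chance meets in about 1 of 20 groups. Of 86 groups, 6 met it, and 5 of these were low values in the CCR8+ library 3. Fcgr1, Adgre1 and Msr1 were at 0 there, against 131 to 319, 175 to 486 and 208 to 397 normalized counts in the other CCR8+ libraries. Spi1 was at 13.7 against 399 to 599, and Cd9 at 76.4 against 532 to 610.2. The sixth was Clec4d, at 89.7 in the CCR8- library 4 and at 0 to 0.735 in the other CCR8- libraries. In the CCR8+ library 3 36 genes of the whole table were at 0 with at least 100 normalized counts in each other library, and the part that this loss of genes had in the low values was not tested.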

How the results depend on the processing

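The count of 0 of 43 genes called held in 20 of 21 alternatives. DESeq2 with the replicate block called 2, Arg1 (log2 fold change 2.05, adjusted p = 0.0305) and Clec4e (5.36, adjusted p = 0.0277), both higher in CCR8+ cells, against 0.698% of all tested genes called higher there. It called 124 of all tested genes, DESeq2 without the block 26, limma without the trend 2 and limma with the replicate block 1. Same-numbered libraries deviated together with correlations of 0.0682 to 0.217, over 0.1 in 3 of 4 pairs, against -0.171 to 0.101 for other-numbered libraries, over 0.1 in 1 of 12. Of the 8 libraries, 7 correlated best with the library of their own number. This is a hint from the data that numbers may pair the libraries, which no source states, and since not every pair was over 0.1 the fit without the block was kept. Compared by number, 40, 39, 28 and 1 of the 43 genes were higher in the CCR8+ library for numbers 1 to 4. Over all tested genes the shares were 50.0%, 48.4%, 46.0% and 48.2%. For 0 of the 43 genes was the CCR8+ library higher in all 4 pairs.
The median log2 fold change of the 43 genes stayed above 0 in all alternatives, between 0.20 (edgeR and DESeq2) and 2.88 (without the CCR8- library 4). For lipid and scavenger genes it was -0.86 with edgeR and -0.87 with DESeq2. With edgeR the log2 fold change turned to -0.034 for Adgre1, -0.42 for C1qa, -0.42 for C1qb, -0.73 for C1qc, -1.35 for Apoe, -0.26 for Msr1, -1.17 for Ctsl, -0.29 for Lgmn, -0.0011 for Ifi30 and -0.29 for Pf4. With DESeq2 it turned to -0.029 for Adgre1, -0.44 for C1qa, -0.43 for C1qb, -0.74 for C1qc, -1.37 for Apoe, -0.26 for Msr1, -1.19 for Ctsl, -0.30 for Lgmn and -0.31 for Pf4.

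Leaving out 1 library at a time, 0 to 10 of the 43 genes did not overlap (10 without the CCR8- library 4) and 0 were called, and with the same total in every library 1 did not overlap, lower in CCR8+ cells, against 2.31% of all tested genes. Signs turned for 12 genes, whose log2 fold changes ranged from -3.07 to 0.35 (Cybb), -2.21 to 1.04 (Sirpa), -0.050 to 3.95 (C1qc), -0.11 to 3.79 (Apoe), -1.92 to 1.35 (Trem2), -1.51 to 2.12 (Ctsl), -0.57 to 1.06 (Lgmn), -0.40 to 0.37 (Psap), -0.17 to 0.49 (Ifi30), -0.71 to 2.73 (Cd63), -0.078 to 2.57 (Clec4d) and -1.91 to 0.32 (Fn1). Correlations between programs ranged from 0.852 to 0.930 (complement and Fc receptor), 0.840 to 0.968 (complement and lipid), 0.728 to 0.952 (complement and inflammatory), 0.903 to 0.971 (Fc receptor and lipid), 0.895 to 0.976 (Fc receptor and inflammatory) and 0.715 to 0.875 (lipid and inflammatory). The causes were not tested beyond what leaving out a library shows. With 4 libraries a group and so wide a spread, large differences could go undetected as well as small ones. Clec4e, at a log2 fold change of 4.49, had an adjusted p of 0.838 (limma). Ccr8, by which the cells were sorted, was not called either, as the lowest adjusted p over all tested genes was 0.788 (limma). The count of 0 genes called therefore does not show that the populations were alike.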

Other observations

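The wider macrophage lists differed in how their genes moved. Of 19 other identity genes, 18 had a log2 fold change above 0 in CCR8+ cells (median 2.12), of 10 other complement and Fc genes 8 (0.74), of 14 other lipid genes 12 (0.86), of 18 other inflammatory genes 14 (1.15) and of 16 other lysosomal genes 9 (0.06), with 0 called in each list by limma. Over all tested genes 52.4% were above 0 (median 0.04) and 0 were called. Csf2rb, the common beta chain of the GM-CSF receptor, was at 0.985, 38.2, 0 and 89.7 in the CCR8- and 679, 159, 44.5 and 121 in the CCR8+ libraries (log2 fold change 4.09 ± 1.72, SE, adjusted p = 0.838, limma). Plek, which encodes pleckstrin, was at 211, 332, 399 and 1102 in the CCR8- and 1839, 776, 1613 and 528 in the CCR8+ libraries, and the neutrophil-attracting chemokine Cxcl2 at 113, 253, 740.3 and 1897 in the CCR8- and 2568, 1013, 6179 and 756 in the CCR8+ libraries. Both overlapped between the populations.

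A pair of genes of other leukocytes had their higher levels in CCR8- libraries, without passing the adjusted test. Klrb1c, which encodes the NK cell receptor NK1.1, was at 0, 24.3, 193 and 211 in the CCR8- and 0, 0, 0 and 0 in the CCR8+ libraries (adjusted p = 0.838, limma), listed at 0 in all 4 CCR8+ libraries and in 1 CCR8- library. The 3 NK cell genes tested, Klrb1c among them, all had a log2 fold change below 0. Cd209a, a gene of dendritic cells and monocytes, was at 583, 134, 45.6 and 0 in the CCR8- and 1.08, 1.68, 0 and 0 in the CCR8+ libraries (adjusted p = 0.838, limma). The 5 other dendritic cell genes tested went the other way, with a log2 fold change above 0 (median of all 6 genes 0.41). Klrb1c and Cd209a were singled out after their values were seen.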
